A study of Mus musculus with 17 samples.

Results

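The STAT proteins are the transcription factors of cytokine receptors. The rule took every probe set whose only gene symbol is Stat2, Stat3, Stat4, Stat5a, Stat5b or Stat6, and found 7 of the 12488 probe sets on the array, which read 5 of the 6 genes, out of 8252 genes named by the annotation. Stat3 and Stat5a were each read by a pair of probe sets, and the one with the higher intensity is called the first here and the other the second. Stat4, Stat5b and Stat6 were read by 1 each. The annotation named no probe set for Stat2, which was not analysed here. All 7 probe sets passed the filter on dim signals and were tested among 9871.

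The cells were macrophages grown from the bone marrow of irradiated mice whose blood system had been rebuilt with fetal liver cells, from embryos that were SOCS3+/+ (called WT here) or SOCS3-/- (called KO). The macrophages came from donor-derived marrow cells, and the labels do not say how many embryos or recipient mice stand behind an array, or whether replicates were separate cultures, so the p-values rest on the scatter between arrays of a group, part or all of which may be technical. RNA was taken from unstimulated cells and after 100 or 400 min of IL-6 at 10 ng/ml. The 17 arrays form 6 groups. Unstimulated WT cells have 2 arrays, and WT at 100 min, WT at 400 min, unstimulated KO, KO at 100 min and KO at 400 min have 3 each. The labels give no age, strain or sex of the mice.

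IL-6 binds its receptor and the shared subunit gp130, whose JAK kinases phosphorylate STAT proteins. The phosphorylated STATs pair, enter the nucleus and bind DNA at palindromes of the form TTCNNNGAA. STAT3 is the main factor of IL-6 and IL-10 in macrophages, and Stat3 is itself known as a STAT3 target. SOCS3 is made in response to STAT3, binds gp130 and blocks the kinases, so it closes a feedback loop. STAT5A and STAT5B serve GM-CSF and related cytokines, STAT6 serves IL-4 and IL-13, and STAT4 serves IL-12, mostly in T and NK cells. The arrays measure mRNA, and phosphorylation of the proteins was not measured.

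Stat5b, Stat5a and Stat3 are neighbours, in this order, among the protein-coding genes of chromosome 11 in the RefSeq gene table of mouse assembly GRCm38.p6. Socs3, the deleted gene, is on chromosome 11 too. 1 promoter window each of Stat3, Stat5a and Stat5b is shown, because Stat3 and Stat5a stood highest in the same group of arrays and because Stat5a and Stat5b are near copies. Each runs from 250 bases before to 50 bases after the annotated start, 5′ to 3′ on the gene's strand, from RefSeq on build GRCm38.p6. The Stat3 window lies on the minus strand at chr11:100939491-100939790, the Stat5a window on the plus strand at chr11:100860234-100860533, and the Stat5b window on the minus strand at chr11:100822521-100822820. In the Stat3 window, capitals mark the matches to TTNNNNNAA. In the Stat5a and Stat5b windows, capitals mark the bases that are identical in a local alignment of these windows.
Stat3: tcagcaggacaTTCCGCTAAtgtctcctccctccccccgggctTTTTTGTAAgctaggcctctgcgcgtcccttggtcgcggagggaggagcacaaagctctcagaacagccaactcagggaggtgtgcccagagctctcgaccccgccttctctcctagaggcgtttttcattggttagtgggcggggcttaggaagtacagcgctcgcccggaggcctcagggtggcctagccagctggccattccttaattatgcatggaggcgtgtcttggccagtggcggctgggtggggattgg
Stat5a: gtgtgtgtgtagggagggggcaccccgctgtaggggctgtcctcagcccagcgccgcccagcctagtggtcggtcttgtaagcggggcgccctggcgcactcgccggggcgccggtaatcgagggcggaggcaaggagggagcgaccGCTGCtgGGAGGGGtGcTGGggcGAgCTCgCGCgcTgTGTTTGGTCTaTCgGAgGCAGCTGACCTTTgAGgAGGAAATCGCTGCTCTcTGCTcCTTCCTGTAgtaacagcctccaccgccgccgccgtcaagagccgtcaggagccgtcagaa
Stat5b: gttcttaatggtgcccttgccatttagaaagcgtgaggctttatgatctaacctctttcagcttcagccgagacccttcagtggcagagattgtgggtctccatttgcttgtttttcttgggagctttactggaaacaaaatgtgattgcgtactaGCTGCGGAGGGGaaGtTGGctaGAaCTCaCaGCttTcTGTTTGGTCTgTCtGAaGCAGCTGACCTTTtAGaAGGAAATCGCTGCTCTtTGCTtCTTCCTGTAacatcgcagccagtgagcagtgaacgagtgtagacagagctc

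RefSeq gives 2 starts each for Stat4, Stat5a and Stat5b. All 4 pairs of a Stat5a and a Stat5b window were aligned, and the pair with the highest score (56) is shown. Its alignment covered 104 columns, of which 83 were identical (79.8%), with a longest identical run of 16 bases. The other 3 pairs scored 11, 15 and 19, with 17, 21 and 105 columns, of which 14, 18 and 64 were identical. The motif TTCNNNGAA, searched on both strands, was in 8.3% of 32851 RefSeq promoters of the same length, and the same palindrome with a gap 1 base wider in 6.95%. Neither was found in the windows of Stat3, Stat4, Stat5a, Stat5b or Stat6, and the window of Stat2 held TTCCCTAGAA at -210. The Stat3 window held 2 matches to the looser TTNNNNNAA, at -239 and -207, a form chosen after the stricter search and present in 59% of promoters. The Stat5b window shown held 2 such matches as well, the window of Stat2 held 2, that of Stat6 held 1, and the windows of Stat4 and Stat5a and the other Stat5b window held 0. Every TTCNNNGAA is also a match to TTNNNNNAA, and these palindromes read the same on both strands. A match is a description of the letters, and no match says only that they are not in this window.

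The arrays' median deposited intensity lay between 164.25 and 216.95, and all levels here are intensities after quantile normalization between arrays. The number of arrays limits the precision. Of the 18 macrophage markers on the array, 14 had a median over the 17 arrays above the median of all intensities (190), from Cybb at 889 to Lgals3 at 29113, and 4 had one below it: Aif1 (183), Fcgr3 (152), Mertk (103) and Marco (25.8). The summed level of the list lay between 159690 and 201792, and the 5 brightest genes made 69.6% of the summed medians. Socs3 checked the labels. On the probe set used for its levels here, it lay between 432 and 2552 on the 6 stimulated WT arrays. It read 54.9 and 115 on the unstimulated WT arrays, and between 16.5 and 179 on 8 of the 9 KO arrays. The array labelled KO 400 min replicate 3 stood apart at 903. The other Socs3 probe set read 793 on that array, and 483 or more on the stimulated WT arrays. On the remaining KO arrays it read up to 333, at KO 100 min replicate 3, above the unstimulated WT arrays at 80.3 and 181. KO 100 min replicate 3 was also the array at 179. Values of KO cells at 400 min are also given without the array labelled KO 400 min replicate 3, in a choice made after the values were seen. The genotypes also differed in sex-linked genes: Eif2s3y, on the Y chromosome, read 245 to 790 on WT and 7.67 to 112 on KO arrays, and Xist read 11.1 to 188 on WT and 228 to 993 on KO arrays. In a KO against WT difference, genotype and what these genes mark cannot be told apart. The 5 arrays with replicate number 3 differed from the other 12 at 717 probe sets (7.26%, limma, adjusted p under 0.05), and the cell cycle genes summed to 39208 to 68173 on them against 29851 to 39979 on the others.

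Stat3, the main factor of IL-6, was the STAT gene whose level passed the test. Its mean on the first probe set went from 1788 ± 309 (SD, n = 3) in unstimulated KO cells to 4591 ± 525 (n = 3) after 400 min of IL-6, and both of its probe sets rose. In WT cells the same probe set went from 1902 ± 223 (n = 2) to 3569 ± 360 (n = 3), a difference that did not pass the test. The KO and WT arrays did not differ beyond the test at any time.

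On the first probe set, Stat3 read 1745 and 2060 in unstimulated WT cells. After 100 min it read 3294, 2586 and 1771, and after 400 min 3605, 3910 and 3193, for replicates 1 to 3. All 3 WT arrays at 400 min were thus above both unstimulated ones, while the 100 min arrays overlapped with them. The low 100 min array, replicate 3, was also the stimulated WT array with the least Socs3, at 432. In KO cells Stat3 read 1907, 2019 and 1438 unstimulated, 3149, 3476 and 2662 at 100 min, and 5008, 4764 and 4001 at 400 min. The 3 KO groups did not overlap each other. All 3 KO arrays at 400 min were above every other array, the highest of which, WT at 400 min, read 3910.

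The second probe set gave the same order of group means. It read 1384 and 1617 in unstimulated WT cells, 2029, 2314 and 1125 at 100 min, and 2098, 2671 and 2618 at 400 min. In KO cells it read 1263, 1417 and 904 unstimulated, 2583, 2431 and 2207 at 100 min, and 2688, 3203 and 2671 at 400 min. Here 2 of the 3 KO arrays at 400 min were above all 14 other arrays, and the third tied with the highest of them. Over the 17 arrays the log2 values of the probe sets correlated at 0.93 (Pearson; n = 17 arrays that share the groups), and at 0.77 after the group means were removed.

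**Figure D1:**
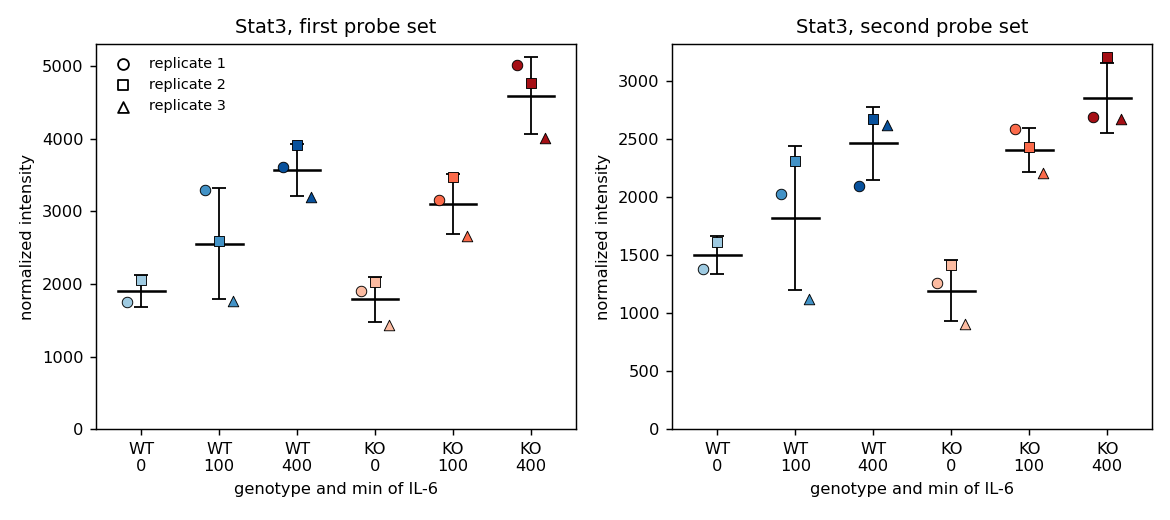
Normalized intensity (vertical axes, linear from 0) of the first and second Stat3 probe sets in the 6 groups of genotype and minutes of IL-6; each point is an array, its shape gives the replicate number, and bars show the group mean and SD. On the first probe set the 3 KO arrays at 400 min lie between 4001 and 5008, above the 14 other arrays.

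After 400 min in KO cells, the first probe set was higher than in unstimulated KO cells by 1.37 on the log2 scale (SE 0.25, 95% interval 0.83 to 1.90, adjusted p = 0.0127, limma), or 2.58-fold. The second was higher by 1.28 (SE 0.27, adjusted p = 0.0304), or 2.42-fold. These were 2 of the 7 STAT probe sets called higher, beside 1.2% of all tested probe sets called higher in this comparison, and 0 were called lower, beside 0.628%. In either direction 1.82% of all were called, and 4 of the 7 had an unadjusted p under 0.05, beside 12.2% of all. The median log2 difference was 0.69 over the 7 and -0.04 over all tested. Without the array labelled KO 400 min replicate 3, the first probe set was higher by 1.46 (adjusted p = 0.0202) and the second by 1.32 (adjusted p = 0.0564), so the second lost its call. Over the arrays numbered 1 and 2 alone the differences were 1.31 (adjusted p = 0.0152) and 1.14 (adjusted p = 0.0333), and between the arrays numbered 3 the first probe set differed by 1.48, with no test. The call of the first was lost without KO 400 min replicate 1 (1.30, adjusted p = 0.0648), KO 400 min replicate 2 (1.34, adjusted p = 0.0576) or unstimulated KO replicate 3 (1.22, adjusted p = 0.0561).

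At 100 min in KO cells Stat3 was higher by 0.80 (SE 0.25, adjusted p = 0.365) on the first and by 1.03 (SE 0.27, adjusted p = 0.195) on the second probe set. No STAT probe set was called, beside 0.577% of all, and 2 had an unadjusted p under 0.05, beside 6.17%. The groups did not overlap in 2 of 7 that were higher, both of Stat3, beside 5.68% of all, and in 0 that were lower, beside 5.66%. Leaving out WT 100 min replicate 3, which enters the shared estimate of the spread, brought the second probe set past the threshold (1.03, adjusted p = 0.0479). From 100 to 400 min the first did not change by the test, with a difference of 0.57 (SE 0.25, adjusted p = 0.53), and the second differed by 0.24. In that comparison 0 of 9871 probe sets were called (0%, limma), with 891 at an unadjusted p under 0.05 (9.03%), 1 of them a STAT probe set. The comparisons at 100 and 400 min share their unstimulated arrays.

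In WT cells, where the unstimulated group has 2 arrays and none numbered 3, the errors were wider. At 400 min Stat3 was higher than in unstimulated WT cells by 0.91 (SE 0.28, 95% interval 0.31 to 1.51, adjusted p = 0.55) on the first and by 0.71 (SE 0.31, adjusted p = 0.76) on the second probe set. No STAT probe set was called, beside 0.0101% of all, and 2 had an unadjusted p under 0.05, both of Stat3, beside 6.26%. The groups did not overlap in 3 of 7 that were higher at 400 min, beside 10.7% of all tested, and in 0 that were lower, beside 11.2%. With the arrays numbered 3 as a block the differences at 400 min were 1.04 (adjusted p = 0.106) and 0.82 (adjusted p = 0.42). At 100 min in WT cells the differences were 0.38 (SE 0.28) and 0.22 (SE 0.31). Over the arrays numbered 1 and 2 alone they were 0.63 (SE 0.20, adjusted p = 0.514) and 0.53 (SE 0.22, adjusted p = 0.663), and without WT 100 min replicate 3 they were 0.62 and 0.53. Leaving out other arrays took them down to 0.17 and 0.015. At this time the STAT probe sets gave 0 of 7 called beside 0.0101% and 0 at an unadjusted p under 0.05 beside 6.12%. Between 100 and 400 min the differences of Stat3 were 0.53 and 0.49, or 0.36 and 0.13 over the arrays numbered 1 and 2 alone, with 0 called beside 0% and 0 at an unadjusted p under 0.05 beside 6.3%. In that comparison the groups did not overlap in 0 of the 7 that were higher, beside 5.93%, and in 0 that were lower, beside 5.7%.

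KO against WT, Stat3 differed by -0.10 unstimulated, 0.32 at 100 min and 0.36 at 400 min on the first probe set (SE 0.28, 0.25 and 0.25, adjusted p = 0.981, 0.999 and 0.752). On the second it differed by -0.35, 0.46 and 0.22. Over the arrays numbered 1 and 2 alone the values were 0.05, 0.18 and 0.37 on the first and -0.16, 0.21 and 0.31 on the second, so on the first the sign in unstimulated cells turned. Without the array labelled KO 400 min replicate 3, the values at 400 min were 0.46 (adjusted p = 0.68) and 0.26. At 400 min all 3 KO arrays were above all 3 WT arrays on the first probe set, and the second overlapped. The 95% interval of the difference at 400 min on the first probe set, -0.17 to 0.90, holds both no difference and one of 0.90. No STAT probe set was called KO against WT, beside 0% of all unstimulated, 0.0405% at 100 min and 0.365% at 400 min. The number at an unadjusted p under 0.05 was 0, 0 and 2 of 7, beside 5.99%, 4.89% and 8.71% of all. At 100 min the KO and WT arrays overlapped in all 7, beside 4.19% of all that did not overlap and were higher in KO and 4.97% that were lower. The KO response of Stat3 exceeded the WT response by 0.46 (SE 0.37, 95% interval -0.34 to 1.26, adjusted p = 0.943) at 400 min on the first probe set and by 0.57 on the second. Over the arrays numbered 1 and 2 alone these values were 0.32 and 0.48, and without the array labelled KO 400 min replicate 3 they were 0.56 and 0.61. At 100 min the corresponding values were 0.42 and 0.81, and 0.13 and 0.38 over the arrays numbered 1 and 2 alone, with no call in either. No probe set of the array was called for a difference between the responses (0% at 100 min and 0% at 400 min, limma). At an unadjusted p under 0.05 there were 361 (3.66%) and 531 (5.38%) in all, none of them a STAT probe set. The rise in KO cells past the threshold and the WT difference short of it were therefore not shown to differ.

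The responses of both genotypes were also averaged in the same fit, a comparison chosen after the values had been seen. The mean response of Stat3 at 400 min was 1.14 (SE 0.19, adjusted p = 0.00739) on the first and 0.99 (SE 0.20, adjusted p = 0.0278) on the second probe set. These were 2 of 7 STAT probe sets, called higher beside 1.04% of all tested. The first was called at this time in each of the 29 alternative settings tried, with a range of 1.06 to 1.21, and the second in 21 of them. At 100 min the mean responses were 0.59 (adjusted p = 0.306) and 0.63 (adjusted p = 0.323), with 0 called beside 0.628% and 2 at an unadjusted p under 0.05 beside 8.51%.

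The order of the group means on the first probe set of Stat3 was unstimulated KO, unstimulated WT, WT at 100 min, KO at 100 min, WT at 400 min and KO at 400 min. Neighbours in this order overlapped except for WT and KO at 400 min. On the second probe set every pair of neighbours overlapped. On the arrays numbered 3 the first probe set lay 0.40 lower on the log2 scale than on the others within groups (SE 0.12, adjusted p = 0.0602), and the second 0.34 lower (adjusted p = 0.216).

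Stat3 and Socs3 were set side by side on each array, since Socs3 encodes the feedback inhibitor that the KO cells lack. Among WT arrays, the 4 with the highest Socs3 at or above 2036 had Stat3 between 3193 and 3910. WT at 100 min replicates 2 and 3 had Stat3 at 2586 and 1771, where Socs3 read 1809 and 432. Among KO arrays at 400 min, Stat3 read 5008 and 4764 where Socs3 read 48.6 and 78.5. It read 4001 on the array labelled replicate 3, where Socs3 read 903. Replicate 3 also had the lowest Stat3 of unstimulated KO cells (1438, Socs3 16.5) and of KO cells at 100 min (2662, Socs3 179). From unstimulated to 400 min in KO cells, Stat3 differed by 1.39, 1.24 and 1.48 on the log2 scale in replicates 1 to 3. These are single arrays and no test was made.

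**Figure D2:**
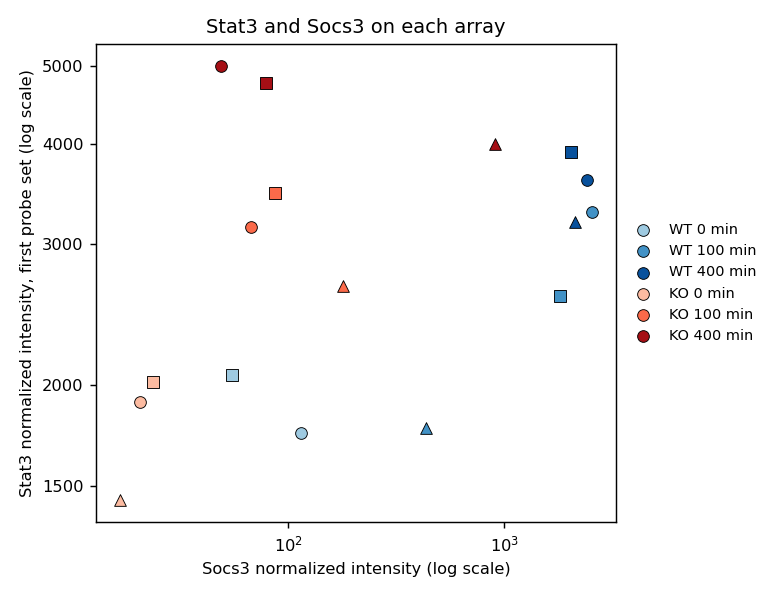
Normalized intensity of Socs3 (horizontal axis, log scale) and of the first Stat3 probe set (vertical axis, log scale) on the 17 arrays; colours give the 6 groups, and circles, squares and triangles are replicates 1, 2 and 3. The KO arrays lie at Socs3 values up to 179 except the array labelled KO 400 min replicate 3, at 903.

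Stat5a, a factor of GM-CSF and related cytokines, had its highest values in KO cells at 400 min on both probe sets, without passing the test. The name of the second probe set ends in _f_at, which the array's maker used where probes are not unique to a transcript, and that of the first in _i_at. Probe sequences were not examined here, so Stat5a and its near copy Stat5b cannot be told apart by them with certainty. The first read 1028 and 1067 in unstimulated WT cells, 1269, 1204 and 630 at 100 min, and 1129, 1303 and 1253 at 400 min. In KO cells it read 1257, 1438 and 1089 unstimulated, 1624, 1409 and 1104 at 100 min, and 2236, 1718 and 2132 at 400 min. All 3 KO arrays at 400 min were above the other 14, whose highest read 1624, and WT at 100 min replicate 3 was the lowest. The second read 440 and 856 in unstimulated WT cells, 718, 779 and 503 at 100 min, and 872, 845 and 654 at 400 min. In KO cells it read 884, 752 and 700 unstimulated, 915, 868 and 748 at 100 min, and 1399, 1143 and 1214 at 400 min. Again the 3 KO arrays at 400 min were above the other 14.

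The KO cells at 400 min were higher than unstimulated KO cells by 0.69 on both probe sets (SE 0.27 each, adjusted p = 0.298 and 0.289). They were higher than WT cells at 400 min by 0.72 and 0.67 (SE 0.27 each, adjusted p = 0.441 and 0.482), and higher than KO cells at 100 min by 0.57 on both. At unadjusted p-values of 0.0191 and 0.025, these were the 2 STAT probe sets under 0.05 for KO against WT at 400 min. In WT cells at 400 min Stat5a differed from unstimulated cells by 0.23 and 0.35, and the difference between the responses was 0.46 (95% interval -0.41 to 1.33) and 0.33. Without the array labelled KO 400 min replicate 3 the probe sets differed from unstimulated KO cells by 0.65 (adjusted p = 0.442) and 0.71 (adjusted p = 0.377), and from WT cells at 400 min by 0.68 (adjusted p = 0.531) and 0.69 (adjusted p = 0.512).

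Stat6, the factor of IL-4 and IL-13, was well above the floor on every array and varied little. It read 2837 and 2524 in unstimulated WT cells, 2319, 2184 and 2499 at 100 min, and 2427, 2396 and 2824 at 400 min. In KO cells it read 3062, 2415 and 2713 unstimulated, 2253, 2368 and 2979 at 100 min, and 2067, 2029 and 2106 at 400 min. The 3 KO arrays at 400 min were below the other 14, whose lowest read 2184. The SD within groups was 0.14 on the log2 scale, below that of all but 1.19% of tested probe sets. KO cells at 400 min lay 0.39 below unstimulated KO cells (-0.39, SE 0.19, adjusted p = 0.434) and 0.30 below WT cells at 400 min (-0.30, SE 0.19, adjusted p = 0.721), neither past the test. Without the array labelled KO 400 min replicate 3 these differences were -0.41 (adjusted p = 0.496) and -0.31 (adjusted p = 0.725). In WT cells Stat6 differed by -0.20 at 100 min, where all 3 arrays were below both unstimulated ones (1 of 7 STAT probe sets, beside 11.3% of all), and by -0.07 at 400 min.

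Stat5b and Stat4 were dim, and their differences had the widest errors of the 7. Stat5b exceeded the 40th percentile of the array on 11 of 17 arrays and at or below the floor on 1. It read 69.1 and 209 in unstimulated WT cells, 14.2, 212 and 125 at 100 min, and 208, 41.4 and 198 at 400 min. In KO cells it read 238, 58.5 and 43.4 unstimulated, 161, 218 and 137 at 100 min, and 146, 291 and 379 at 400 min. All 6 groups overlapped with their neighbours in the order of means, and KO cells at 400 min differed from unstimulated KO cells by 1.58 (SE 0.88, adjusted p = 0.54), and by 1.28 (SE 1.01, adjusted p = 0.713) without the array labelled replicate 3, the highest of the group. Leaving out each of the 17 arrays in turn gave 1.09 to 2.31.

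Stat4, which serves IL-12 in T and NK cells, lay above the 40th percentile on 4 of 17 arrays and at or below the floor on 2. It read 80.7 and 141 in unstimulated WT cells, 199, 151 and 106 at 100 min, and 23.8, 111 and 115 at 400 min. In KO cells it read 85.5, 25.7 and 73.6 unstimulated, 21.3, 117 and 126 at 100 min, and 15.3, 32.3 and 150 at 400 min. No group stood apart, and KO cells at 400 min differed from unstimulated KO cells by -0.20 (SE 0.85, adjusted p = 0.96), and by -1.03 (SE 0.84, adjusted p = 0.726) without the array labelled replicate 3. Of the 15 T and NK cell markers on the array, 8 passed the filter, and their summed level was 926 to 1619 over all arrays. Of the 15, 14 had a median over the arrays below the median of all intensities (190), and Cd4 was above it at 229. The chains of the T cell receptor complex read 25.7 (Cd3g), 44.2 (Cd3e), 54.4 (Cd3d) and 113 (Cd247), against a floor of 22.01, and Zap70, a T cell kinase, read 126. In these bulk samples fewer cells of a type and less RNA per cell cannot be told apart.

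**Figure D3:**
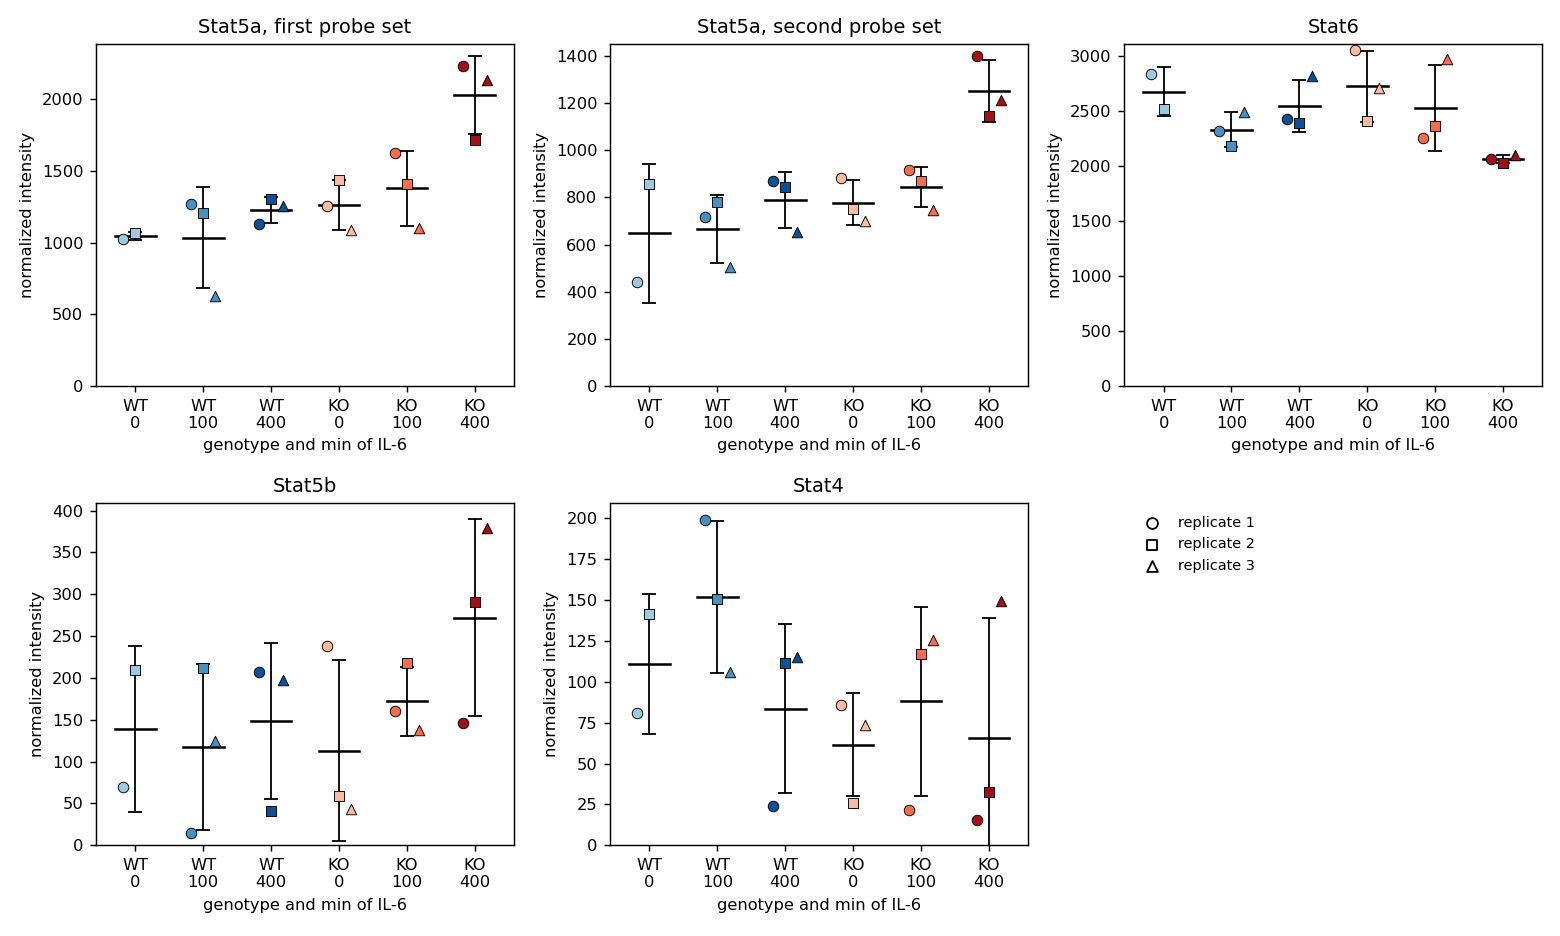
Normalized intensity (vertical axes, linear from 0, before the floor was set) of the other 5 STAT probe sets in the 6 groups; points are arrays, shapes give the replicate number, and bars show the group mean and SD, with a lower bar under 0 left off. Both Stat5a panels show the 3 KO arrays at 400 min above the other 14, and the Stat6 panel shows them below. The Stat5b and Stat4 groups overlap with their neighbours in the order of means.

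Among the 7 probe sets, the groups KO at 400 min and unstimulated KO did not overlap in 4 that were higher (both of Stat3 and both of Stat5a), beside 8.53% of all tested, and in 1 that was lower (Stat6), beside 9.1%. From 100 to 400 min in KO cells they did not overlap in 4 higher, beside 7.45%, and 1 lower, beside 7.5%. KO and WT at 400 min did not overlap in 3 higher, beside 7.2%, and 1 lower, beside 7.55%. In unstimulated cells 1 was higher in KO, the first probe set of Stat5a, beside 11.6%, and 0 were lower, beside 11.7%. All 3 KO arrays at 400 min were above all 14 others in 3 of the 7 STAT probe sets, beside 1.13% of all tested, and below all 14 in 1, beside 1.12%. The 3 that were higher read 2 genes that are neighbours on the chromosome. Without the array labelled KO 400 min replicate 3, the other 2 KO arrays at that time were above all 14 others in 4 of 7, beside 3.17% of all tested, and below in 1, beside 3.56%. Against unstimulated KO cells the groups then did not overlap in 4 higher, beside 15.3%, and 1 lower, beside 16.8%.

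Over the 17 arrays the log2 values of the first probe sets of Stat3 and Stat5a correlated at 0.71 and, after group means were removed, at 0.77. Stat3 and Stat6 correlated at -0.67, and at -0.51 after group means were removed. The arrays share groups and replicate numbers, and these values are a description. By the same measure, the genes most like the first probe set of Stat3 were Slc12a7, a potassium-chloride cotransporter (0.94), Ier3 (0.94), Myd88, an adaptor of Toll-like receptors (0.93), Fgl2 (0.92) and Il4ra, the IL-4 receptor alpha chain (0.92). Those most like the second were Myd88 (0.91), Zfp36, which destabilises mRNAs of inflammatory genes (0.91), Map11 (0.89), Ap1g1 (0.88) and Ier3 (0.88). For the first probe set of Stat5a they were Nfil3, a leucine zipper factor (0.86), Ndel1 (0.85), Jak3, a JAK kinase (0.85), Fabp5 (0.85) and Flot2 (0.85). For the second they were Grina (0.86), Il6st, which encodes gp130 (0.83), Jak3 (0.83), Clip2 (0.83) and Arnt (0.83). For Stat6 they were Mef2a, a MADS-box factor (0.86), Clcn3 (0.81), Mef2d (0.81), Pum2 (0.81) and Helb (0.80). For the dim Stat4 they were Sc5d (0.82), Ly9 (0.81), H2-D1 (0.80), Gnb5 (0.79) and Ugdh (0.78), and for the dim Stat5b they were Stau1 (0.78), Mrps16 (0.75), Cfhr2 (0.74), Adk (0.73) and Eef1b2 (0.73).

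**Figure D4:**
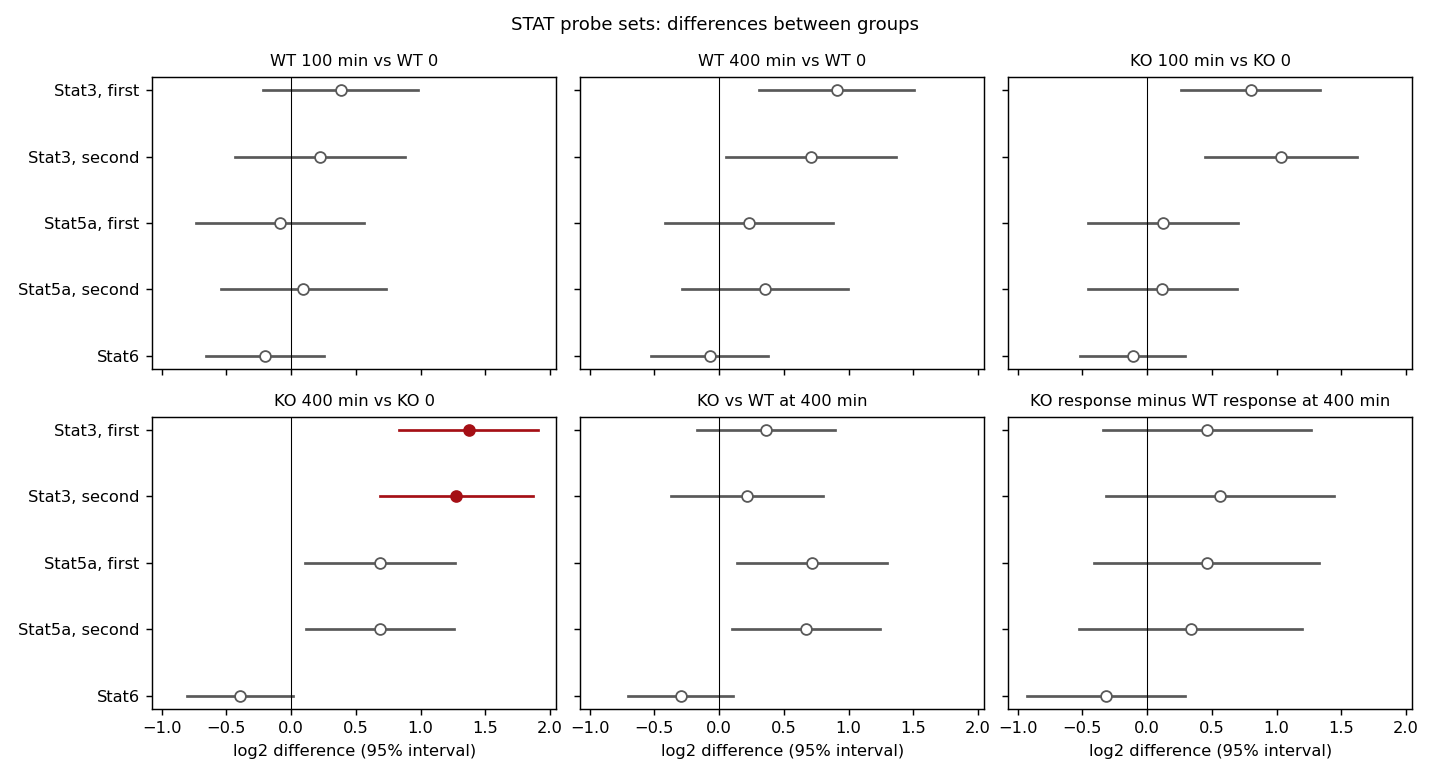
Log2 differences (horizontal axes, with 95% intervals) of the 5 brighter STAT probe sets in 6 comparisons; filled red points passed an adjusted p of 0.05 and open points did not. The filled points are Stat3 on both probe sets for KO at 400 min against unstimulated KO, at 1.37 and 1.28.

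The other genes of the pathway were taken from lists, each gene with its brightest tested probe set. The numbers count the genes that passed the filter on dim signals, for example 24 of 31 receptors, 36 of 40 STAT3 targets and 7 of 12 STAT4 targets, since the others were dim or not named on the array. Among receptors that signal through STATs, 4 of 24 tested genes were called higher and 0 lower in KO cells at 400 min against unstimulated KO cells, beside 1.2% and 0.628% of all probe sets. They were Il4ra (4.35, SE 0.35, adjusted p = 6.59e-05), Il13ra1, a chain of the IL-13 receptor (3.22), Csf2rb, the beta chain shared by the receptors of GM-CSF, IL-3 and IL-5 (3.20), and its copy Csf2rb2 (1.20), whose probes may be shared with Csf2rb. The median over the 24 was 0.09, against -0.04 over all tested genes. Il6st, on this list and that of the STAT3 targets, was not called on its brightest probe set. Its probe set named above beside Stat5a was higher by 1.48 (adjusted p = 0.0396, limma) and is not in the counts. Of the 4 JAK kinases 0 were called, with log2 differences of 0.16 for Jak1, 1.15 for Jak2, 1.09 for Jak3 and -0.32 for Tyk2. Among 14 inhibitors 1 was called, Ptpn1, a phosphatase of JAK kinases (1.58, adjusted p = 0.019). Among 17 partners and coactivators 0 were called. When the array labelled KO 400 min replicate 3 was left out, 2 receptors were called higher, Il4ra and Il13ra1, while Csf2rb (2.86, adjusted p = 0.0861) and Csf2rb2 (1.20, adjusted p = 0.0814) lost their calls. Jak2 (1.95, adjusted p = 0.00687) and, lower, Prkcd, a kinase among the partners (-1.06, adjusted p = 0.0399), were then called, and Ptpn1 was called in both. Without that array 1.04% of all probe sets were called higher and 0.728% lower.

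In the same comparison the STAT target lists moved as follows, beside 1.2% of all probe sets called higher and 0.628% called lower. Earlier results of these data were known when the lists were chosen, so the counts are a description. Among 36 STAT3 target genes 10 were called higher and 1 lower, with a median of 0.96. The genes with the largest changes were Il4ra, Ch25h, which makes an oxysterol (3.25), Gadd45g, a stress gene (2.94), and Irf1, a factor of interferon responses (2.67); the 1 that fell was Fos, a part of AP-1 (-2.10). Among 16 STAT6 target genes 4 rose and 0 fell, with a median of 1.15: Fcgr2b, the inhibitory Fc receptor (4.92), Arg1, arginase (4.59), Il4ra and Myc (2.31). Among 20 STAT2 target genes, known from type I interferon, 4 rose and 0 fell, with a median of 0.83: Ifi47 (3.52), Cxcl10, a chemokine (3.08), Isg15 (1.92) and Trim30a (1.58). Among 11 STAT5 target genes Csf2rb and Pim1, a kinase (2.01), rose and Igf1, a growth factor (-1.43), fell, with a median of 0.08. Among 7 STAT4 target genes 0 were called, with a median of 1.31. The lists share genes: Il4ra stands on 3 of them. With KO 400 min replicate 3 left out, 9 STAT3 targets were called higher and 2 lower, beside 1.04% and 0.728% of all, with Junb no longer called (1.45, adjusted p = 0.0742) and Cd14 called lower (-1.40, adjusted p = 0.0409). The same 4 STAT2 targets and the same 4 STAT6 targets were called, with Ccl17, a chemokine, in addition (2.45, adjusted p = 0.0202), and of the STAT5 targets Pim1 and Igf1 were called.

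At 100 min in KO cells 8 of 36 STAT3 targets rose, among them Ch25h (4.13) and Gadd45g (3.23), with 3 of 16 STAT6 targets, 2 of 20 STAT2 targets, 2 of 24 receptors, 1 of 11 STAT5 targets and 1 of 7 STAT4 targets (Map3k8, a kinase, at 1.66), and 0 fell. Beside these, 0.537% of all probe sets were called higher and 0.0405% lower. In WT cells Il4ra was the gene called in these lists, higher by 2.85 at 100 min (adjusted p = 0.0456) and by 3.58 at 400 min (adjusted p = 0.00339). At each time it was the 1 probe set called among all 9871 tested (0.0101%). KO against WT at 400 min, 3 STAT3 targets were higher, Ch25h (3.04), Irf1 (2.15) and Timp1, an inhibitor of metalloproteinases (1.84). Ifi47 (3.11) and Cxcl10 (2.34) of the STAT2 list and Socs1, an inhibitor of JAK kinases (2.58), were higher too, and Igf1 was lower (-1.47). Beside these, 0.314% of all probe sets were called higher and 0.0507% lower. On the arrays other than KO 400 min replicate 3, Ch25h (2.86), Irf1 (2.23) and Ifi47 (3.36) were called, and Timp1 (adjusted p = 0.0642), Cxcl10 (adjusted p = 0.0868), Socs1 (adjusted p = 0.0572) and Igf1 (adjusted p = 0.0659) were not. Jak2 (1.72), Arg1 (4.11) and Ccl17 (2.75) were then called higher and Socs3 lower (-3.67). Without that array 0.359% of all probe sets were called higher and 0.226% lower. In the lists Socs3 was read by its other probe set, the one that read 793 on KO 400 min replicate 3. The name of that probe set ends in _f_at, like the second of Stat5a, so its probes may not be unique to Socs3. No gene of these lists was called KO against WT in unstimulated cells or at 100 min, from 100 to 400 min in either genotype, or for a difference between the responses. Without KO 400 min replicate 3, which left 2 arrays in that group, Arg1 was called higher from 100 to 400 min in KO cells (4.15, adjusted p = 0.0155, limma). It was then also called for a difference between the responses at 400 min (5.62, adjusted p = 0.0487, limma). In each of these comparisons 0.0103% of all probe sets were called higher. With all arrays the values were 2.85 (adjusted p = 0.305) and 4.33 (adjusted p = 0.518).

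**Figure D5:**
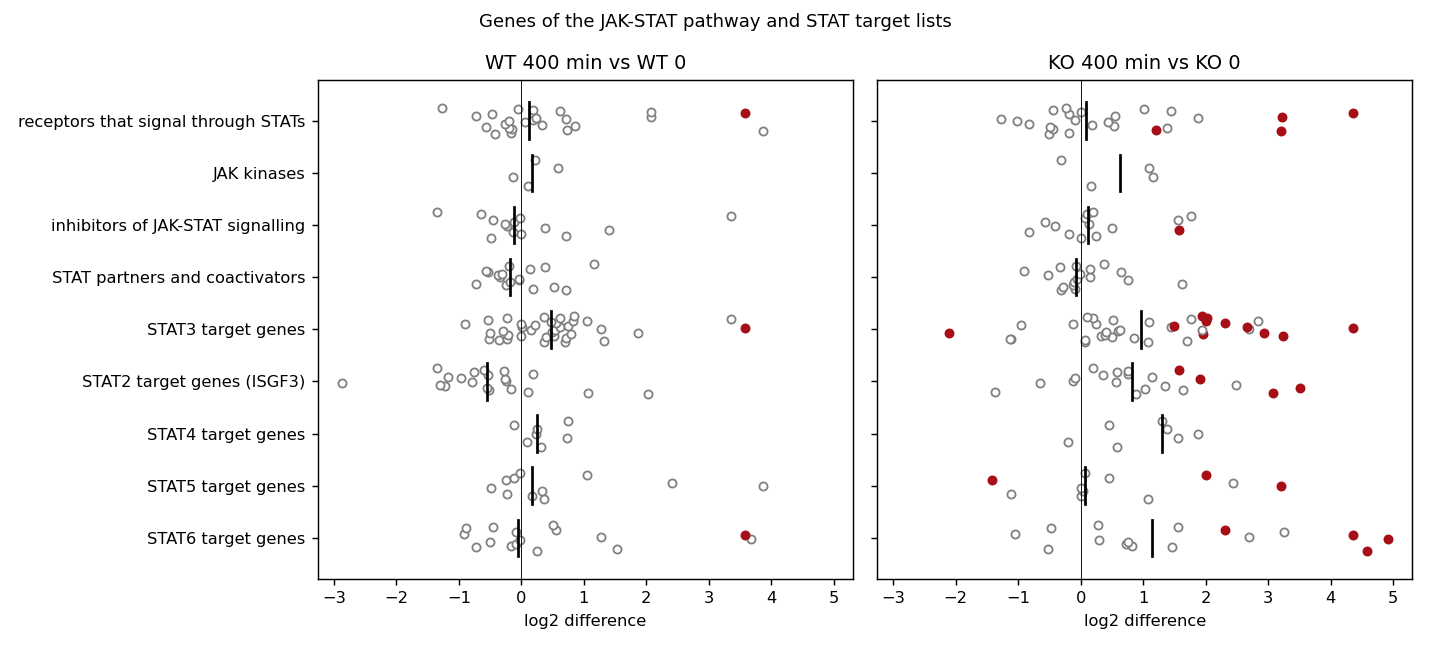
Log2 differences (horizontal axes) of the genes of 9 lists at 400 min against unstimulated cells, in WT (left) and KO (right); each point is a gene, filled red points passed an adjusted p of 0.05, and bars are list medians. In WT cells the called gene is Il4ra, which stands on 3 lists and was the 1 probe set called among all tested. In KO cells 10 STAT3 targets were called higher and 1 lower, beside 1.2% and 0.628% of all probe sets.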

How the data were processed

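Mouse expression was measured on 17 arrays, and the authors deposited 1 linear intensity per probe set and array. From the values, the mean after leaving out the lowest and highest 2% was about 500.3 to 500.4 on each array, so the deposited intensity had been scaled, with software not given in the sources used here. Since array medians differed by 0.4 log2, intensities were quantile normalized, and values under the 10th percentile (22.01) were raised to it before log2 was taken. After 66 control probe sets were left out, a probe set was tested if 2 or more arrays had it above their 40th percentile. Limma 3.58.1 (R 4.3.3) fitted 1 mean per group over all arrays, and the Benjamini-Hochberg adjustment of its two-sided p-values covered 9871 probe sets in each of 11 comparisons and 2 added later. Levels are means ± SD before the floor. The code was tested on simulated data.

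Named genes were every STAT probe set, up to 4 called genes per list and comparison with the largest change, and the 5 genes most correlated with each STAT probe set. Probe sets are named by the platform's annotation (10855 with 1 symbol, 396 with several genes, 1237 unnamed). The members and lists were chosen with earlier results of these data known. Alternatives were the scaling, floor, filter, spread estimate, block, and leaving out each array. Protein sequences were not used here.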

Additional observations from a re-analysis of the deposited data

How the results depend on the processing

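The direction of Stat3 in KO cells at 400 min was the same under all 29 alternatives, with 1.22 to 1.47 on the first probe set, which was called under 25 of them, and 1.09 to 1.42 on the second, called under 21. The first, at 1.37, lost its call with only the compared groups in the fit (adjusted p = 0.106, fewer arrays), and leaving out an array gave 1.22 to 1.47 (adjusted p = 0.00508 to 0.0648). The number of STAT probe sets called there, 2, was 1 with deposited values scaled to a common median and 0 with only the compared groups, and 0 to 2 leaving out an array. For KO at 100 min the number, 0, was 1 with limma-trend and robust eBayes, and 0 to 1 leaving out an array. For the mean response at 100 min it was 1 rather than 0 with the arrays numbered 3 as a block (Stat3, adjusted p = 0.0351). For the mean response at 400 min it was 1 rather than 2 with a common median, and 1 to 2 leaving out an array. Where limma-trend is not named, it left these counts as they were. The cause was not tested. No called difference changed sign. Of the 91 differences (7 probe sets in 13 comparisons), 30 that were not called changed sign under at least 1 alternative, among them Stat5b in WT cells at 100 min (-0.53, and 0.44 without WT 100 min replicate 1) and Stat4 in WT cells at 400 min (-0.66, and 0.09 without WT 400 min replicate 1).

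Of 30 pairs of arrays that share the number 1 or 2, 1 had deviations correlated above 0.1 (range -0.016 to 0.11). All 10 pairs numbered 3 were above it (0.1004 to 0.236), so these arrays deviated together, and they were also used as a block of their own. Pairs with different numbers were not examined, so the check cannot show whether the numbers 1 and 2 pair the arrays. With the replicate number as a block, Stat3 in KO cells at 400 min was 1.37 (adjusted p = 0.00256) and 1.28 (adjusted p = 0.0117) on its probe sets, and the counts called were as without it. Stat4 and Stat5b, near the floor, have no order among low values, and no detection calls were used here.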
